A study of Homo sapiens with 10 samples.

Results

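The genes of beta-catenin and the protein complex that destroys it were followed at the RNA level in HCMECs, which the labels give as an endothelial cell line from brain. The 10 genes, chosen by symbol, were CTNNB1 (beta-catenin), APC, AXIN1, AXIN2, GSK3A, GSK3B, CSNK1A1, BTRC, and the tankyrase genes TNKS and TNKS2. They are 10 of the 58735 lines of the count table, and 9 of the 10 passed the filter on low counts, AXIN2 being the exception. With all 10 libraries, none of these 9 genes differed between the groups past the threshold, which 7.31% of the 13934 tested lines passed. The targeted gene USP9X had 36.5, 68.8, 27.6, 22.4 and 20.7 counts per 1000000 counts of its library (CPM) after its siRNA, against 416, 283, 330.3, 324 and 352 CPM after the control siRNA.

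In the study, 5 libraries labelled siUSP9X came from cells that carried an siRNA against USP9X, which encodes a deubiquitinase, and 5 labelled siCtrl from cells that carried a control siRNA. Transfection lasted 48 h and was followed by 12 h with the ligand Wnt3a in both groups, so that every library comes from Wnt3a-stimulated cells; unstimulated cells were not analysed here. Nothing in the labels tells whether a group's libraries were separate cultures; a p-value here measures spread among libraries that may be technical. The counts are of bulk RNA, in which fewer cells of a type and less RNA per cell cannot be told apart.

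Beta-catenin joins cells together at adherens junctions and, when it accumulates, enters the nucleus and activates transcription with TCF and LEF proteins. Without a Wnt signal, AXIN and APC hold it beside the kinases CK1 alpha and GSK3, which phosphorylate its amino-terminal stretch, and beta-TrCP then recognises the phosphorylated stretch and directs ubiquitin ligation and proteasomal destruction. Wnt ligands inhibit this complex, and in the brain Wnt/beta-catenin signalling in endothelial cells is known for building and keeping the blood-brain barrier. Most of this control acts on the protein, which RNA counts do not measure.

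The stretch on which the complex acts is shown because 4 of the genes described here meet on it. It is the coding sequence of codons 32 to 45 of CTNNB1 (chromosome 3, plus strand, GRCh38 transcript ENST00000645320.1, a protein of 781 residues), 5′ to 3′, and the capitals mark the codons of serine 33, serine 37, threonine 41 and serine 45.
CTNNB1 codons 32 to 45: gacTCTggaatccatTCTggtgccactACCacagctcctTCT
CK1 alpha, the product of CSNK1A1, phosphorylates serine 45 first. GSK3, encoded by GSK3A and GSK3B, then phosphorylates the other 3 marked residues, and the phosphorylated serines 33 and 37 are the ones that beta-TrCP, the product of BTRC, binds.

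Library totals ran between 15958362 and 26467787 counts. One library stood apart, siUSP9X replicate 2, and its values touch every gene described here except AXIN2. Relative to the mean of the other 4 siUSP9X libraries, it was over 2-fold higher for 10.4% of the 13934 tested lines and over 1.5-fold lower for 27.6%. Its deviation followed transcript base composition: the median over genes was 0.74 (log2) among the genes of lowest GC content (up to 41.0%, 1 of 5 equal bins), 0.02 in the middle bin and -0.83 in the highest (from 58.1%). Across 13862 genes, which are not independent, Spearman's rho of its deviation was -0.67 with GC content and 0.55 with transcript length; among the genes described here, APC (10701 bases) and TNKS (9620 bases) have the longest transcripts. Of its counts, 1.96% fell on ribosomal protein genes, a share that was 4.10% to 4.77% for the rest of its group and 4.42% to 5.84% for siCtrl. The siCtrl library of replicate 1 deviated from its group in the same direction by GC content and less widely, with an interquartile range of log2 deviations of 0.433, against 1.24 in siUSP9X replicate 2. Results are therefore given with and without it. Among 10 endothelial markers, 9 averaged under 1 CPM in both groups, PECAM1 with 8 counts in all siUSP9X libraries and 8 in all siCtrl libraries, and ERG and EMCN at 0 in every library. ESAM alone was higher, at 143 CPM in siUSP9X and 161 CPM in siCtrl libraries. At the RNA level, 9 of these 10 markers thus do not bear out the endothelial label. Of 7 epithelial markers, 5 averaged under 1 CPM in both groups, with KRT5 and KRT14 at 0 and EPCAM at 0.342 CPM in siUSP9X and 0.887 CPM in siCtrl libraries. Their summed level, nearly all of it the keratins KRT8 and KRT18, was 2031 to 2759 CPM in siUSP9X and 3317 to 4179 CPM in siCtrl libraries, and its part in the results below was not tested.

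CTNNB1 (chromosome 3, 41194741 to 41260096, plus strand, GRCh38) was the most abundant of the 10 transcripts. Its level was 373, 807, 346, 339.7 and 372 CPM in siUSP9X libraries 1 to 5, against 403, 383, 407, 407 and 395 CPM in siCtrl libraries 1 to 5. The siCtrl libraries lay close together, 4 siUSP9X libraries lay below all of them, and siUSP9X replicate 2 lay far above every other library. The means were 447 ± 201 CPM in siUSP9X and 399 ± 9.98 CPM in siCtrl libraries (SD, n = 5 each). The log2 fold change was 0.17 ± 0.23 (SE) with a 95% interval of -0.33 to 0.66 (edgeR adjusted p = 0.635). When siUSP9X replicate 2 was left out, the siUSP9X mean was 358 ± 17.4 CPM (n = 4), the log2 fold change -0.16 ± 0.07 and its interval -0.29 to -0.02. The groups then no longer overlapped, and the difference missed the threshold in edgeR (adjusted p = 0.0967). With the same 9 libraries, DESeq2 gave an adjusted p of 0.0411 and edgeR with a correction for GC content and transcript length gave -0.23 with an adjusted p of 0.00124. Both fits were added after the data were seen. Of 24 alternative fits, only these 2 passed the threshold, while 17 gave a positive value and 7 a negative one. Of the 10 fits that left out 1 library, 0 passed. The sign and the call for beta-catenin RNA therefore differ with the inclusion of 1 library and with the method.

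**Figure D1:**
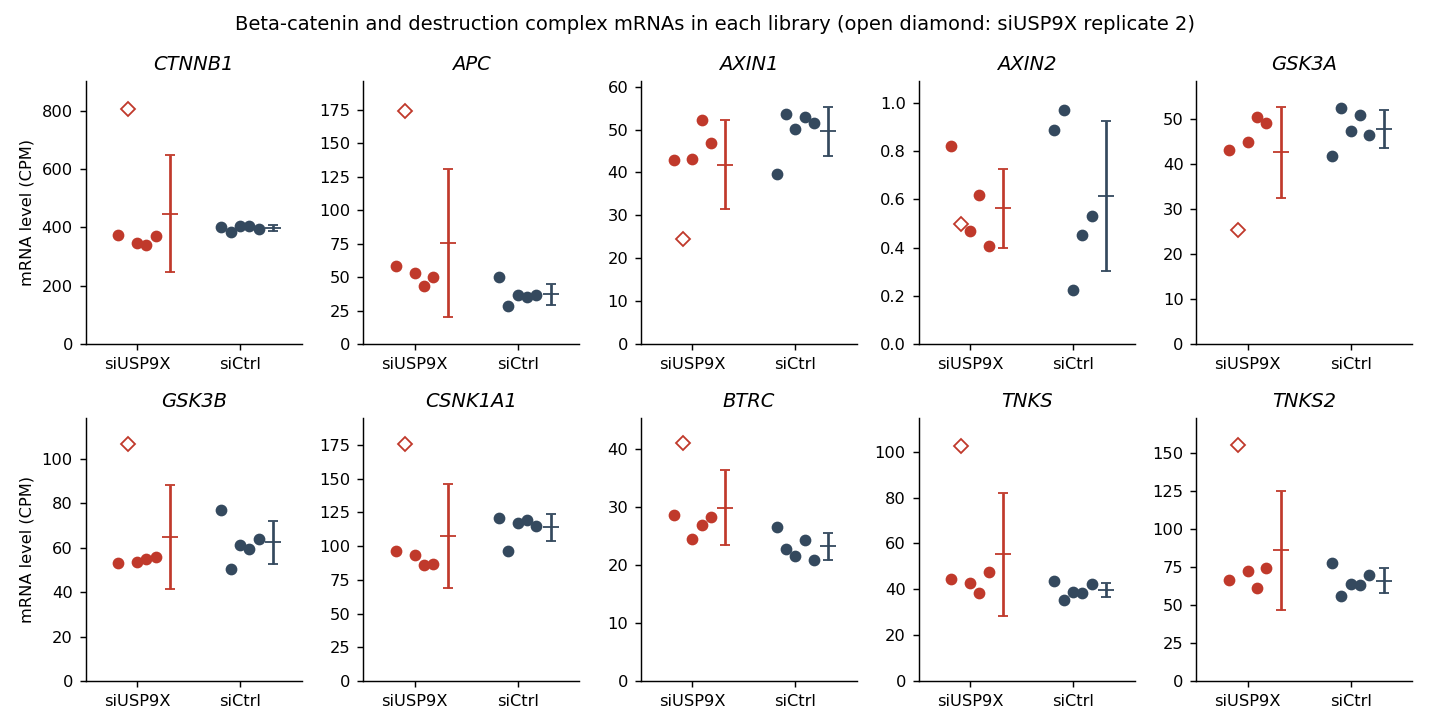
Level of each of the 10 genes in every library (CPM, each panel with its own axis from 0), siUSP9X on the left and siCtrl on the right, with each point 1 library, bars for the mean and SD, and siUSP9X replicate 2 as an open diamond. For CTNNB1, the diamond lies at 807 CPM while the other 4 siUSP9X libraries lie at 339.7 to 373 CPM, below the siCtrl libraries at 383 to 407 CPM.

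Across the 13934 tested lines, 7.31% passed an adjusted p of 0.05 with all libraries (4.09% higher and 3.22% lower in siUSP9X), against 0 of the 9 tested genes described here. At an unadjusted p under 0.05, 27.8% of all tested lines and 2 of the 9, APC and BTRC, differed. DESeq2 on the same 10 libraries called 1 of the genes higher, APC, limma-voom called none, and limma-voom with library weights called APC and BTRC higher and CSNK1A1 lower. Of all 13934 tested lines, DESeq2 called 1264 higher and 1078 lower and limma-voom 546 and 491. With library weights, limma-voom called 2473 higher and 2444 lower. The median log2 fold change was 0.17 over the 9 genes and 0.03 over all tested lines. Without siUSP9X replicate 2, all 10 genes passed the filter, and 23.4% of the 14086 tested lines were called. Of the 10 genes, 1 was then called higher, APC, and 1 lower, CSNK1A1, a share near that background, and the median was -0.05 against 0.01 over all lines. The groups did not overlap for 14.6% of tested lines with all libraries (siUSP9X above for 7.79% and below for 6.85%) and for 0 of the 10 genes. Leaving that library out, they did not overlap for 19.9% of lines (above for 10.4%, below for 9.48%) and for 2 of the 10, CTNNB1 and CSNK1A1, both below.

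**Figure D2:**
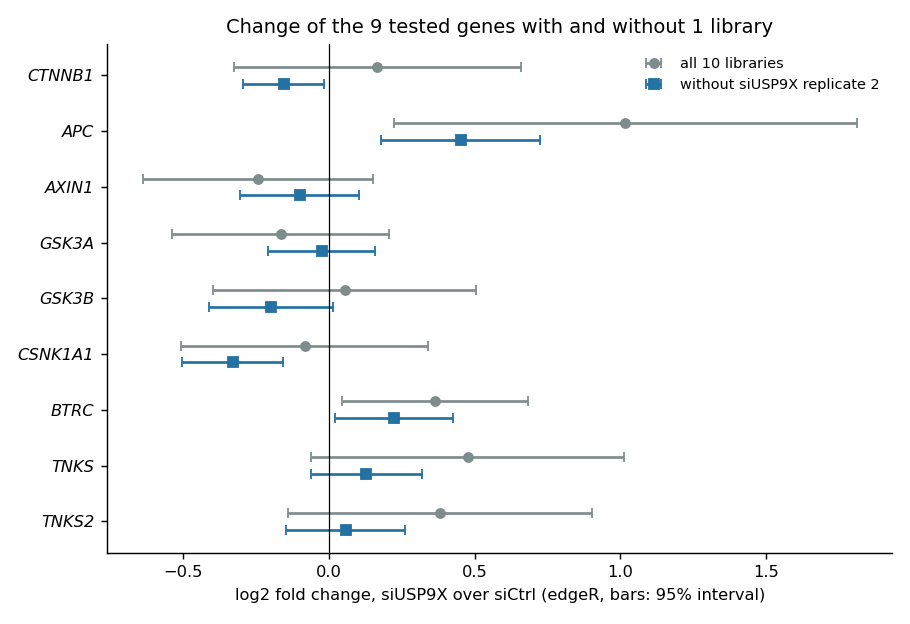
Log2 fold change, siUSP9X over siCtrl, with its 95% interval for each gene, from the fit of all 10 libraries and from the fit without siUSP9X replicate 2. The interval narrows without that library for each of the 9 genes; APC then lies at 0.45 (0.18 to 0.72) and CSNK1A1 at -0.33 (-0.51 to -0.16).

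The scaffold genes came next. APC (chromosome 5, 112707498 to 112846239, plus strand) encodes the large scaffold that binds both beta-catenin and AXIN and is lost in most colorectal tumours. It had 58.1, 174, 53.1, 43.3 and 49.9 CPM in siUSP9X libraries, against 49.9, 28.3, 36.7, 35.3 and 36.7 CPM in siCtrl libraries. Every siUSP9X library was above 4 of the 5 siCtrl libraries, and the groups overlapped only through siCtrl replicate 1. The means were 75.7 ± 55.2 CPM in siUSP9X and 37.4 ± 7.83 CPM in siCtrl libraries (SD, n = 5 each). This log2 fold change of 1.02 ± 0.36, interval 0.22 to 1.81, missed the threshold after adjustment (adjusted p = 0.104). Without siUSP9X replicate 2 the siUSP9X mean was 51.1 ± 6.18 CPM, and APC rose by 0.45 ± 0.13 on the log2 scale (adjusted p = 0.0174). Its fold change was positive in 24 of 24 alternative fits, from 0.27 to 1.16, and past the threshold in 8 of them. The alternative fits here and below reuse the same libraries, so their shared sign is not independent evidence. Of the 10 fits that left out 1 library, 1 passed for APC, the one without siUSP9X replicate 2. Its paralog APC2 had 31.5 ± 2.25 CPM in siUSP9X and 32.7 ± 4.95 CPM in siCtrl libraries (log2 fold change -0.06, interval -0.32 to 0.21, adjusted p = 0.773).

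AXIN1 (chromosome 16, 287440 to 352673, minus strand) encodes the scaffold on which the complex assembles and whose amount is thought to limit it. Its level was 42.8, 24.4, 43.1, 52.1 and 46.8 CPM in siUSP9X libraries, against 39.7, 53.6, 50.2, 52.8 and 51.4 CPM in siCtrl libraries. The lowest values were those of siUSP9X replicate 2 and siCtrl replicate 1, and the groups overlapped. The log2 fold change was -0.24 ± 0.18 (interval -0.64 to 0.15, adjusted p = 0.377) and -0.10 without siUSP9X replicate 2 (adjusted p = 0.493). It was negative in 24 of 24 alternative fits and past the threshold in none.

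AXIN2 (chromosome 17, 65528563 to 65561647, minus strand) encodes the other axin and is a widely used direct target of Wnt/beta-catenin signalling, part of a negative feedback loop. It was near the limit of detection: the counts were 14, 9, 8, 10 and 7 in siUSP9X libraries and 17, 18, 4, 12 and 10 in siCtrl libraries. The ranges overlapped almost fully. Pooled over each group, 48 counts gave 0.561 CPM in siUSP9X (exact Poisson 95% interval 0.414 to 0.744) and 61 counts gave 0.606 CPM in siCtrl (0.464 to 0.778), intervals that cover counting error only. For each 100 AXIN1 counts there were 0.870 to 2.04 AXIN2 counts in siUSP9X libraries and 0.449 to 2.24 in siCtrl libraries. It passed the filter without siUSP9X replicate 2, with a log2 fold change of -0.08 (adjusted p = 0.916). A difference of AXIN2 between the groups was thus not detectable at this depth, in cells that had all received Wnt3a.

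Among the kinases, CSNK1A1 (chromosome 5, 149492197 to 149551552, minus strand) encodes CK1 alpha, which primes serine 45 in the stretch printed above. It had 96.4, 176, 93.5, 85.8 and 86.4 CPM in siUSP9X libraries, against 121, 96.5, 117, 119.7 and 115 CPM in siCtrl libraries. Apart from siUSP9X replicate 2, the siUSP9X libraries were all lower than the siCtrl libraries, by a narrow margin between siUSP9X replicate 1 and siCtrl replicate 2. The log2 fold change was -0.08 ± 0.19 with all libraries (interval -0.51 to 0.34, adjusted p = 0.790). When that library was left out, CSNK1A1 fell to 90.5 ± 5.26 CPM in siUSP9X (n = 4), against 114 ± 9.98 CPM in siCtrl libraries (n = 5), a log2 fold change of -0.33 ± 0.08 (adjusted p = 0.00777). The value was negative in 24 of 24 alternative fits, from -0.45 to -0.01, and past the threshold in 7. Some of its exons, 2886 bases in all, are shared with a gene on the same strand, AC021078.1. The table gives that gene 852 raw counts summed over siUSP9X and 898 over siCtrl libraries. The sums are not scaled to the unequal library totals and give no direction of change. The sources used here do not tell how reads were divided between CSNK1A1 and AC021078.1. Its intronless copy CSNK1A1L had 0 counts in every library.

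GSK3A (chromosome 19, 42230186 to 42242625, minus strand) and GSK3B (chromosome 3, 119821323 to 120094417, minus strand) encode the 2 forms of glycogen synthase kinase 3. For GSK3A the values were 43.3, 25.3, 45.0, 50.5 and 49.3 CPM in siUSP9X libraries, against 41.8, 52.4, 47.4, 51.0 and 46.5 CPM in siCtrl libraries, with siUSP9X replicate 2 lowest and the groups overlapping (log2 fold change -0.17 ± 0.17, interval -0.54 to 0.21, adjusted p = 0.526; without siUSP9X replicate 2 -0.02, adjusted p = 0.872). For GSK3B the values were 53.2, 107, 53.5, 54.8 and 55.9 CPM in siUSP9X libraries, against 76.8, 50.6, 61.1, 59.5 and 64.0 CPM in siCtrl libraries. Here siUSP9X replicate 2 was the highest, and the other 4 siUSP9X libraries lay within 53.2 to 55.9 CPM, inside the siCtrl range. The log2 fold change of GSK3B was 0.05 ± 0.21 (interval -0.40 to 0.51, adjusted p = 0.873) with all libraries and -0.20 ± 0.10 without siUSP9X replicate 2 (adjusted p = 0.169). With the correction for GC content and length on all libraries it was -0.31 (adjusted p = 0.00347). Over 24 alternative fits GSK3B ran from -0.32 to 0.14, positive in 16 and negative in 8, and passed the threshold in 2.

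The RNAs of the 2 GSK3 forms moved in opposite directions in siUSP9X replicate 2. The log2 ratio of GSK3A to GSK3B counts within a library, which does not depend on scaling, was -0.58 ± 0.83 in siUSP9X and -0.37 ± 0.34 in siCtrl libraries (SD, n = 5 each; exact two-sided permutation p = 0.786, adjusted over 4 pairs 0.786). The difference of -0.21 turned to 0.16 without siUSP9X replicate 2 (exact two-sided permutation p = 0.452). The related kinase genes CSNK1D and CSNK1E, whose products CK1 delta and CK1 epsilon also act in Wnt signalling, were compared in the same way. Their log2 ratio was 0.90 ± 0.03 in siUSP9X and 1.15 ± 0.06 in siCtrl libraries, a difference of -0.25 (exact two-sided permutation p = 0.00794, the smallest that permutations of 5 against 5 can give; adjusted over 4 pairs 0.0317). All 5 siUSP9X libraries, at 0.88 to 0.96, lay below all 5 siCtrl libraries, at 1.06 to 1.20, and the difference was also -0.25 without siUSP9X replicate 2. Neither gene passed the threshold alone: CSNK1D had a log2 fold change of -0.28 (adjusted p = 0.354) and CSNK1E of -0.04 (adjusted p = 0.905). Without siUSP9X replicate 2 these were -0.12 (adjusted p = 0.328) and 0.13 (adjusted p = 0.285).

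**Figure D3:**
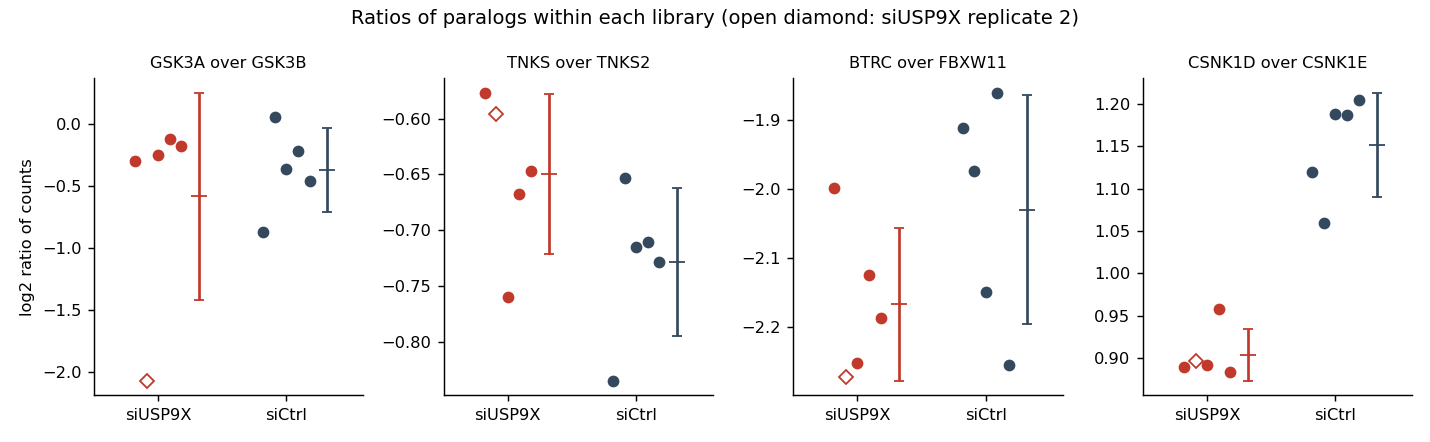
Log2 ratio of counts within each library for 4 pairs of related genes, siUSP9X on the left and siCtrl on the right of each pair, with points for libraries and bars for the group mean and SD. CSNK1D over CSNK1E is the pair whose groups do not overlap, 0.88 to 0.96 in siUSP9X against 1.06 to 1.20 in siCtrl; the GSK3A over GSK3B ratio spreads widely in siUSP9X because replicate 2 lies at -2.07.

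BTRC (chromosome 10, 101354033 to 101557321, plus strand) encodes beta-TrCP, the substrate-binding subunit of the ubiquitin ligase that marks phosphorylated beta-catenin. It had 28.6, 41.0, 24.4, 26.9 and 28.3 CPM in siUSP9X libraries, against 26.5, 22.8, 21.5, 24.2 and 20.8 CPM in siCtrl libraries. The siUSP9X values were mostly the higher ones, and the groups overlapped through siUSP9X replicate 3 and siCtrl replicate 1. The means were 29.8 ± 6.45 CPM in siUSP9X and 23.2 ± 2.28 CPM in siCtrl libraries. This is a log2 fold change of 0.36 ± 0.15 (interval 0.05 to 0.68, adjusted p = 0.135). It was 0.22 ± 0.10 without siUSP9X replicate 2 (adjusted p = 0.102). The value was positive in 24 of 24 alternative fits, from 0.14 to 0.43, and past the threshold in 2. FBXW11, whose product beta-TrCP2 recognises the same stretch, had a log2 fold change of 0.52 ± 0.15 (adjusted p = 0.0642), and rose by 0.34 on the log2 scale without siUSP9X replicate 2 (adjusted p = 0.00301). The log2 ratio of BTRC to FBXW11 was -2.17 ± 0.11 in siUSP9X and -2.03 ± 0.17 in siCtrl libraries (exact two-sided permutation p = 0.159, adjusted over 4 pairs 0.212).

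TNKS (chromosome 8, 9555914 to 9782346, plus strand) and TNKS2 (chromosome 10, 91798312 to 91865276, plus strand) encode tankyrases, which attach poly(ADP-ribose) (PAR) to axin and so mark it for destruction. For TNKS the values were 44.7, 103, 42.7, 38.5 and 47.7 CPM in siUSP9X libraries, against 43.5, 35.4, 39.0, 38.5 and 42.3 CPM in siCtrl libraries. For TNKS2 they were 66.7, 155, 72.3, 61.2 and 74.6 CPM in siUSP9X libraries, against 77.5, 55.7, 64.0, 63.0 and 70.1 CPM in siCtrl libraries. In both genes siUSP9X replicate 2 was over 2-fold above the rest of its group, and the other libraries of the groups overlapped. The log2 fold change was 0.48 ± 0.25 for TNKS (interval -0.06 to 1.01, adjusted p = 0.223) and 0.38 ± 0.24 for TNKS2 (interval -0.14 to 0.90, adjusted p = 0.302). Leaving it out, these were 0.13 (adjusted p = 0.331) and 0.06 (adjusted p = 0.709). The log2 ratio of TNKS to TNKS2 differed by 0.08 between siUSP9X, at -0.65 ± 0.07, and siCtrl libraries, at -0.73 ± 0.07 (exact two-sided permutation p = 0.103, adjusted over 4 pairs 0.206).

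The level in siUSP9X replicate 2 over the mean of the other 4 siUSP9X libraries was 3.41-fold for APC, 2.37-fold for TNKS, 2.26-fold for TNKS2 and 2.26-fold for CTNNB1. GSK3B at 1.96-fold, CSNK1A1 at 1.94-fold and BTRC at 1.51-fold followed. These 7 genes have GC contents of 39.4% (CSNK1A1) to 45.3% (BTRC). The 3 genes below 1 were AXIN2 at 0.861-fold, GSK3A at 0.538-fold and AXIN1 at 0.529-fold, with GC contents of 53.1%, 52.0% and 63.2%. Beside the all-gene deviation by GC content, the 7 genes had higher relative levels in that 1 library and the 3 genes lower ones. On the log2 scale these deviations had the sign of the all-gene median in their GC bin and were often larger: APC was at 1.76 where the median of its bin was 0.74, CTNNB1 at 1.17 where it was 0.41, and GSK3A at -0.88 where it was -0.43.

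**Figure D4:**
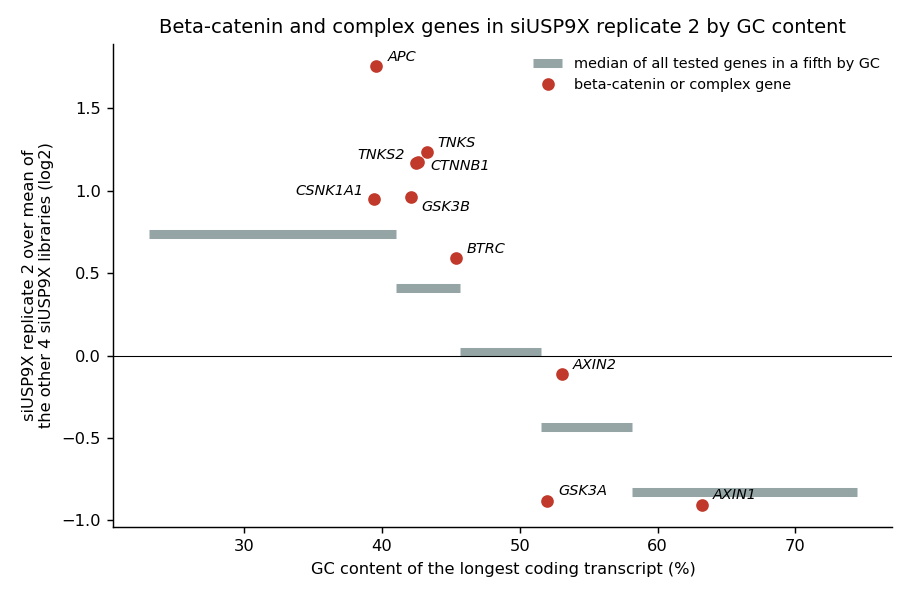
Log2 level in siUSP9X replicate 2 over the mean of the other 4 siUSP9X libraries, against the GC content of the transcript in percent, for the 10 genes (labelled points) and as the median of all tested genes in each of 5 bins of GC content (grey bars). The genes of low GC content lie above 0 and above the median of their bin, and AXIN1 (63.2%) and GSK3A (52.0%) lie below 0, where the medians of the bins run from 0.74 to -0.83.

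Per kilobase of transcript, CTNNB1 stood first with 94.5 ± 42.6 CPM per kb in siUSP9X and 84.2 ± 2.11 CPM per kb in siCtrl libraries, the level of the 94.4th percentile of tested genes in siCtrl. CSNK1A1 came second with 17.7 ± 6.31 in siUSP9X and 18.8 ± 1.64 CPM per kb in siCtrl libraries. In siCtrl libraries AXIN1 (13.6 ± 1.56), GSK3A (13.6 ± 1.18) and TNKS2 (10.7 ± 1.33 CPM per kb) overlapped in range, as did TNKS2 and GSK3B (8.09 ± 1.23 CPM per kb). TNKS (4.13 ± 0.333), BTRC (3.78 ± 0.372) and APC (3.49 ± 0.732 CPM per kb) formed an overlapping lower group. In siUSP9X libraries APC averaged 7.07 ± 5.16 CPM per kb and stood seventh, against ninth in siCtrl. AXIN2 came last at 0.132 ± 0.0386 CPM per kb in siUSP9X and 0.144 ± 0.0731 CPM per kb in siCtrl libraries. With the length of all annotated exons in place of 1 transcript, CTNNB1, CSNK1A1 and AXIN2 kept their places and AXIN1 moved to the sixth.

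Distance from the profile of CTNNB1 was taken as the root mean square difference of centred log2 CPM, among 10560 genes. The nearest genes over the 10 libraries were AXL (0.0601), IARS (0.0659) and IPO5 (0.0693). Over the 9 libraries without siUSP9X replicate 2 they were MTHFD1 (0.0319), SMYD4 (0.0319) and ERCC3 (0.0410). Among the genes of the complex, GSK3B at rank 305 and CSNK1A1 at rank 306 were nearest to CTNNB1 over the 10 libraries, and GSK3A at rank 8418 and AXIN1 at rank 8641 were the farthest. The order changed without siUSP9X replicate 2, where CSNK1A1 (rank 1387) and GSK3B (2316) were followed by GSK3A (2610), AXIN1 stood at rank 3917 and APC was the farthest at rank 9927. These ranks describe distance only, and correlation with CTNNB1 was not measured.

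Around the complex, 3 lists of further genes were counted in the same fit. Of 27 partners and kinases of the complex, 1 rose, 0 fell and 26 missed the threshold, beside 4.09% higher and 3.22% lower of all tested lines. The median log2 fold change of the list was 0.05, against 0.03 over all tested lines. The gene that rose was AMER1, which brings APC to the plasma membrane. It had 15.2, 28.0, 16.1, 19.3 and 20.5 CPM in siUSP9X libraries, against 11.8, 9.34, 13.01, 14.2 and 13.2 CPM in siCtrl libraries, all siUSP9X values being the higher ones (log2 fold change 0.69 ± 0.18, adjusted p = 0.0419). JUP, which encodes plakoglobin, the close relative of beta-catenin, had a log2 fold change of 0.18 (adjusted p = 0.388). With the correction for GC content and length it was 0.38 (adjusted p = 0.00777), and 0.25 without siUSP9X replicate 2 (adjusted p = 0.0748).

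Of 20 genes of ubiquitin- and PAR-dependent turnover, 2 rose, 1 fell and 17 missed it, beside the same 4.09% and 3.22% of all lines, with a median of 0.16 against 0.03. RNF146, the ligase that recognises PAR-marked axin, had 21.9, 26.9, 22.6, 23.2 and 21.2 CPM in siUSP9X libraries, against 19.5, 17.1, 15.8, 16.8 and 16.0 CPM in siCtrl libraries (log2 fold change 0.44 ± 0.11, adjusted p = 0.0307). UBE2D3, a ubiquitin-conjugating enzyme, had 367, 470.0, 381, 375 and 401 CPM in siUSP9X libraries, against 315, 299.6, 309, 287 and 305 CPM in siCtrl libraries (0.40 ± 0.09, adjusted p = 0.0296). The groups were separate for both, as they were for PARP1, a nuclear PAR polymerase not dedicated to this pathway, which fell to 264, 283, 256, 265 and 269 CPM in siUSP9X libraries, against 351, 329.9, 330.1, 337 and 340.4 CPM in siCtrl libraries (-0.34 ± 0.08, adjusted p = 0.0284).

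Of 22 nuclear partners of beta-catenin, 0 rose, 1 fell and 21 missed it, beside 4.09% higher and 3.22% lower of all lines, with a median of -0.08 against 0.03. The gene that fell was TCF7L2, which encodes a DNA-binding partner of beta-catenin. It had 7.58, 8.31, 7.62, 8.94 and 8.83 CPM in siUSP9X libraries, against 14.7, 13.1, 11.9, 13.2 and 15.4 CPM in siCtrl libraries, with no overlap (log2 fold change -0.73 ± 0.11, adjusted p = 0.00443). Its call was kept in 10 of 10 fits that leave out 1 library. With the replicate number as a block in edgeR, no gene of these lists kept its call, TCF7L2 having an adjusted p of 0.0641. The calls of AMER1, RNF146, UBE2D3 and PARP1 lay near the threshold and were lost without most single libraries, with adjusted p up to 0.101 for AMER1, 0.0964 for RNF146, 0.0861 for UBE2D3 and 0.0786 for PARP1, while their log2 fold changes stayed within 0.53 to 0.77, 0.39 to 0.49, 0.33 to 0.43 and -0.36 to -0.32. With the correction for GC content and length, UBE2D3 was at 0.19 and lost its call (adjusted p = 0.117).

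Without siUSP9X replicate 2 the counts in these lists were larger, as they were over all genes: 4 higher and 1 lower of the 27, 3 higher and 2 lower of the 20, and 1 higher and 9 lower of the 22, beside 11.9% higher and 11.5% lower of all tested lines. The 9 nuclear partners that were lower included HIPK2, a kinase (log2 fold change -0.96 ± 0.14, adjusted p = 0.000131), TCF7 (-0.54 ± 0.14, adjusted p = 0.0109), the nuclear exporter XPO1 (-0.34 ± 0.08, adjusted p = 0.00598) and the paired ATPases RUVBL1 and RUVBL2 (-0.32 and -0.37). The rest of the 9 were TCF7L2 (-0.73), PYGO2 (-0.27), TBL1XR1 (-0.27) and KPNA2 (-0.21). The gene that was higher was BCL9, which links beta-catenin to PYGO proteins (0.30 ± 0.09, adjusted p = 0.0241). Of the turnover genes, FBXW11 was higher beside RNF146 and UBE2D3, and USP25 was lower (-0.31) beside PARP1. Of the complex partners, WDR26 (0.34 ± 0.09, adjusted p = 0.00761) and the protein phosphatase 2A genes PPP2CA (0.22, adjusted p = 0.0266) and PPP2R5A (0.28, adjusted p = 0.0198) were higher beside AMER1, and CSNK2A2 was lower (-0.24, adjusted p = 0.0326).

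**Figure D5:**
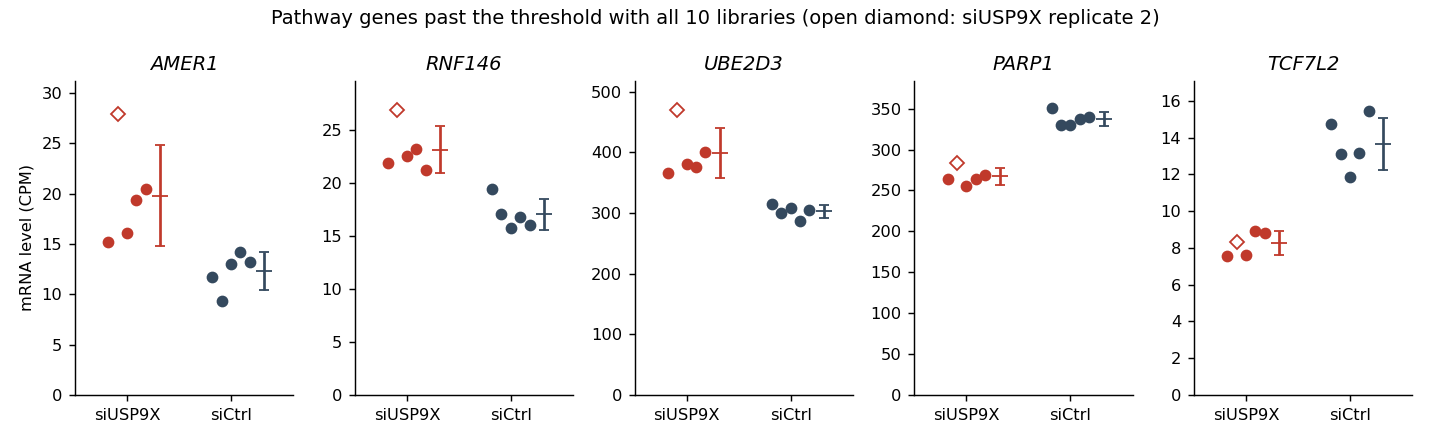
Level (CPM, each panel with its own axis from 0) of the 5 genes of the 3 lists that passed the threshold with all libraries, siUSP9X on the left and siCtrl on the right, with each point 1 library, bars for the mean and SD, and siUSP9X replicate 2 as an open diamond. In each panel all siUSP9X points lie on 1 side of all siCtrl points, above them for AMER1, RNF146 and UBE2D3 and below them for PARP1 and TCF7L2.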

How the data were processed

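RNA-seq of 10 libraries was analysed, 5 siUSP9X and 5 siCtrl, grouped by the treatment in their titles. The labels' protocols name TRIzol extraction and a stranded mRNA kit. The deposited table gives whole-number counts per gene symbol, not normalized; per the submitters' processing notes hg38, RSEM and DESeq2 were used, with no version, role or order. The aligner and annotation, and whether the counts are rounded RSEM estimates, which would split reads shared between similar genes, are not given in the sources used here. All 58735 lines entered the library totals, and lines that share a symbol (1745) were kept apart; each gene described has 1 line.

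The main test was edgeR's quasi-likelihood test (edgeR 4.0.16, R 4.3.3; TMM factors, filterByExpr with a minimum count of 10, robust estimation, group only), two-sided, with Benjamini-Hochberg adjustment over all tested lines and a threshold of 0.05. CPM are counts per 1000000 of the TMM-scaled library total. Alternatives used DESeq2 1.42.0, limma-voom (limma 3.58.1) and an offset for GC content and transcript length from mgcv 1.9.3 splines, which was added after seeing the data, as were the fits that combine it, DESeq2 or limma-voom with the omission of siUSP9X replicate 2. The edgeR script was tested on simulated data. Coordinates, lengths and GC contents come from GENCODE release 29 (GRCh38), and the codons of CTNNB1 from its transcript there. The ratios of related genes used a pseudocount of 0.5 and exact permutation tests. Each library was counted as 1 replicate. No 2 libraries of a group agreed within sampling noise (chi-square per degree of freedom 4.92 or more). That spread cannot tell separate cultures from separate preparations of 1 culture. The genes, the lists around them and the tests were chosen with earlier results of these data known. Beside cell type markers and genes that overlap or copy CSNK1A1, the genes named are the 10, the genes of the 3 lists past the threshold, 5 relatives (FBXW11, CSNK1D, CSNK1E, APC2, JUP), the 3 nearest to CTNNB1 with and without siUSP9X replicate 2, and USP9X; list genes called only without that library were named after their values were seen.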

Additional observations from a re-analysis of the deposited data

Results flagged for a closer look

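A library lay far from the 4 others of its group in 12 of the 28 groups of 5 checked. For independent groups chance gives about 1 in 20, but these groups come from the same libraries and are not independent. The measure is the gap to the nearest library divided by the range of the group, with a critical value of 0.71. In 9 of these the library was siUSP9X replicate 2. It was high for CTNNB1 (0.928), APC (0.887), GSK3B (0.95), CSNK1A1 (0.882), BTRC (0.748), TNKS (0.857) and TNKS2 (0.857), and low for GSK3A (0.714) and for the log2 ratio of GSK3A to GSK3B (0.909). The other 3 were siUSP9X replicate 4, high for the log2 ratio of CSNK1D to CSNK1E (0.837), siCtrl replicate 1, low for AXIN1 (0.752), and siCtrl replicate 2, low for CSNK1A1 (0.771).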

How the results depend on the processing

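Counts below are given as genes higher, then lower, in siUSP9X. The call for all genes was 570 and 449 with all libraries; it was 1264 and 1078 with DESeq2, 2473 and 2444 with limma-voom library weights, and 1581 and 1562 with the GC and length offset. Leaving out single libraries gave 170 to 1674 higher (lowest without siCtrl replicate 3, highest without siUSP9X replicate 2) and 189 to 1620 lower.

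Of the 10 genes, against 0 and 0, DESeq2 called 1 higher, library weights 2 and 1, the offset 1 and 2, and single omissions 0 to 1 and 0 to 1. Without siUSP9X replicate 2, DESeq2 gave 1799 and 1847 genes and 1 and 2 of the 10, limma-voom 1678 and 1509 and 1 and 1, and the offset 2113 and 2631 and 1 and 3; without siCtrl replicate 1 as well, edgeR gave 2314 and 2332 and 2 and 1.

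The list counts that follow are to be read beside the counts of all genes in the same fits. Further all-gene counts were 691 and 431 with library totals and 596 and 485 with upper-quartile scaling. They were 389 and 328 of 30638 lines with no filter and 560 and 462 of 10586 with the 5 CPM filter. The offset fit tested 13862 lines and the other fits of all libraries 13934. For complex partners (1 and 0), library totals gave 2 higher, DESeq2 4, weights 6 and 2, the offset 3 and 1, omissions 0 to 4 and 0 to 1. For turnover genes (2 and 1), no filter gave 0 and 0, weights 6 and 3, the offset 2 lower, omissions 0 to 3 and 0 to 2. For nuclear partners (0 and 1), upper-quartile scaling, library totals and a filter of 5 CPM in 5 libraries each gave 2 lower, DESeq2 1 and 6, weights 1 and 10, the offset 1 and 6, omissions 0 to 1 and 1 to 9. Without siUSP9X replicate 2, DESeq2 and limma-voom each gave 4 and 1, 2 lower and 1 and 9 in these lists, the offset 6 and 2, 4 and 5 and 1 and 9, and leaving out siCtrl replicate 1 too 6 and 2, 5 and 3 and 1 and 10.

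CTNNB1 reversed to -0.15 with weights, -0.10 with the offset, -0.16 without siUSP9X replicate 2 by edgeR, DESeq2 and limma-voom, -0.23 with the offset there and -0.15 without siCtrl replicate 1 as well. GSK3B was -0.18, -0.31, -0.20, -0.20, -0.18, -0.32 and -0.11 in the same fits and -0.02 without siCtrl replicate 2, and CSNK1E was 0.11, 0.11, 0.13, 0.13, 0.13, 0.18, 0.084 and 0.0036. APC2 was 0.022 with the offset and 0.013 without siCtrl replicate 4; TNKS was -0.029 and TNKS2 -0.043 with the offset without siUSP9X replicate 2. Over single omissions the log2 fold change ran from -0.16 to 0.25 for CTNNB1, -0.20 to 0.14 for GSK3B, -0.11 to 0.13 for CSNK1E and -0.13 to 0.013 for APC2. The log2 ratio differences ran over single omissions from -0.33 to 0.16 for GSK3A over GSK3B, 0.052 to 0.11 for TNKS over TNKS2 (exact permutation p = 0.0238 without siUSP9X replicate 3), -0.19 to -0.10 for BTRC over FBXW11 (exact permutation p = 0.0476 without siCtrl replicate 5) and -0.27 to -0.23 for CSNK1D over CSNK1E. Apart from effects built into fewer libraries or another filter, the cause of these shifts was not tested.

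Same-numbered libraries of the groups did not deviate together (correlations of -0.49 to 0.28). These are correlations of deviations within each group, which siUSP9X replicate 2 dominates, so they cannot tell whether the numbers pair the libraries. With the replicate number as a block, 34 and 57 genes, 0 of the 10, and 0 and 0 in each of the 3 lists passed. At 15958362 to 26467787 counts per library, depth limits AXIN2, with 4 to 18 counts per library.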
